A study of Mus musculus with 22 samples.

Results

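Transcripts of 10 genes of cell proliferation, *Mki67*, *Top2a*, *Ccnb1*, *Ccnb2*, *Ccna2*, *Cdk1*, *Birc5*, *Rrm2*, *Mcm5* and *Pclaf*, were followed in mouse brown adipose tissue (BAT) with and without CPEB2 and after gene transfer of PRDM16. The genes were taken as a fixed list of symbols, and all 10 were found among the 55487 genes of the count tables. Their levels were low in all 6 groups. In untreated BAT they split the libraries into 4 high and 6 low ones that crossed genotype, and no difference between KO and WT passed the test. In virus-injected BAT they were lowest in WT mice given PRDM16. Over both viruses *Mki67* and *Ccna2* were higher in KO than in WT, by 3.08-fold and 2.01-fold. Their log2 fold changes were 0.70 and 0.37 with the control virus and 2.55 and 1.65 with PRDM16. Leaving out single libraries lost the call of *Mki67* in 6 and that of *Ccna2* in 11 of 12 fits. Both calls were also lost with a score of leukocyte or macrophage markers as a covariate, with both estimates still positive. The share of all genes called in these fits was not counted.

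These genes are switched on as a cell leaves rest and divides, and their mRNAs are scarce in resting tissue. *Rrm2*, *Mcm5* and *Pclaf* serve DNA synthesis, whereas *Ccna2*, *Ccnb1*, *Ccnb2* and *Cdk1* form the kinase complexes that carry a cell through S phase and into mitosis. In BAT of adult mice, brown adipocytes themselves rarely divide, and stromal precursors, endothelial cells and resident or recruited immune cells are the cells in which cycling is usually seen.

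RNA sequencing covered 22 libraries of interscapular BAT from C57BL/6 mice, all labelled male and kept on chow. Untreated mice, wild-type (WT, n = 5) or lacking CPEB2 in the whole body (KO, n = 5), were 21 to 25 weeks old. They had been deprived of food for some hours before BAT was collected. The other 12 mice received 30 µl of adeno-associated virus (AAV) directly into BAT at 16 weeks of age and were collected 9 weeks later, at 25 weeks; the virus carried either green fluorescent protein (GFP), the control, or flag-tagged PRDM16, a transcription factor of brown adipocyte identity. Each genotype received each virus in 3 mice, and these 4 groups are named by both (WT + AAV-GFP, for example). CPEB2 is an RNA-binding protein that controls translation of its target mRNAs. The KO was global and congenital, so cells other than adipocytes lacked CPEB2 too, and the virus reached whichever cells it could infect around the injection. KO and WT mice came from heterozygous crosses. Replicate numbers of the groups did not pair the libraries, and the untreated samples also carry numbers in their labels that fall into runs; what those numbers mark, such as a litter or a day, is not given.

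Libraries held 55320927 to 162721202 counts in untreated BAT and 61636889 to 143005309 in injected BAT, and the 10 proliferation genes together contributed 299 to 4421 and 250 to 3173 of them. *Cpeb2*, the deleted gene, stood at 7.60 to 14.2 CPM (counts scaled to library size) in untreated WT. In libraries labelled KO it stood at 11.7, 5.39, 2.83, 5.63 and 1.99 CPM, so that KO replicate 1 lay within the WT range, and the difference did not pass (log2 fold change −0.99, SE 0.41, edgeR quasi-likelihood adjusted p = 0.305). In injected BAT, *Cpeb2* fell to between 4.35 and 5.57 CPM in KO against 10.5 to 14.0 CPM in WT (−1.18 with GFP, adjusted p = 0.02; −1.34 with PRDM16, adjusted p = 0.0108; same test). *Prdm16* averaged 33.5 ± 8.53 CPM (SD, n = 3) in WT + AAV-GFP and 95.02 ± 42.4 in WT + AAV-PRDM16, with 32.7 ± 1.79 and 90.1 ± 33.2 in the KO groups. The WT + AAV-PRDM16 libraries differed, at 120.9, 118.1 and 46.0 CPM in replicates 1 to 3, beside at most 40.5 CPM in WT + AAV-GFP. Transcripts of Y-linked genes were nearly absent from 6 of the 10 untreated libraries (at most 1.10 CPM in sum, with *Xist* at 98.7 CPM or more), although all were labelled male; 2 of these were WT and 4 KO. Markers of brown adipocytes were high throughout, at 7814 to 20430 CPM in sum.

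Genes of this kind are known to share short promoter words: CCAAT boxes, the cell cycle homology region (CHR, here TTTGAA or TTCGAA) and E2F sites (here TTTCCCGC, TTTGGCGC, TTTCGCGC or TTTGCCGC). Words were searched on both strands in the window from 250 bases before to 50 after the RefSeq start, which the reference table gave for 9 of the 10 genes and not for *Ccna2*. CCAAT stood in 8 of 9 windows against 37.4% of all 32851 promoters, and 7 of 9 held at least 2 of them against 11.7%. CHR words stood in 4 of 9 (*Mki67*, *Top2a*, *Ccnb2* and *Cdk1*) against 19.2%, and E2F words in 3 of 9 (*Cdk1*, *Mcm5* and *Pclaf*) against 2.26%. A match describes letters and does not show that a factor binds there. The 4 sequences below, from RefSeq on GRCm38.p6, are the 200 bases before the start, written 5′ to 3′ on the gene's strand. They were picked to show CCAAT with CHR (*Mki67*, *Top2a*, *Ccnb2*) beside CCAAT with E2F (*Mcm5*). The other genes do not divide this way by function. *Cdk1* held words of every kind, *Ccnb1* and *Rrm2* held CCAAT alone, and *Birc5* held none. In *Ccnb2* the CHR word shown lies before all its CCAAT words, and another, after the start, is not shown. Capitals mark the words, read on either strand (ATTGG is CCAAT on the other strand and TTCAAA is TTTGAA), and in *Mcm5* E2F words of both strands overlap. The windows are chr7:135716380-135716579 (minus strand), chr11:99024190-99024389 (minus), chr9:70421555-70421754 (minus) and chr8:75109309-75109508 (plus).
Mki67: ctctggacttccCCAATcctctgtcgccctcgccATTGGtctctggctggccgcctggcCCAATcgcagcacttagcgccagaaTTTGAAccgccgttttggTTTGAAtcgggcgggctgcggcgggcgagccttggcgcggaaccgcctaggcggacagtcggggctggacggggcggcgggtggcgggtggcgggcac
Top2a: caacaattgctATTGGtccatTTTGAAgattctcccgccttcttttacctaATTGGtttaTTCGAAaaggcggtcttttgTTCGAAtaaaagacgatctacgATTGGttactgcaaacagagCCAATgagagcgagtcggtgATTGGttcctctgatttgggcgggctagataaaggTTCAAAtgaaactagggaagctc
Ccnb2: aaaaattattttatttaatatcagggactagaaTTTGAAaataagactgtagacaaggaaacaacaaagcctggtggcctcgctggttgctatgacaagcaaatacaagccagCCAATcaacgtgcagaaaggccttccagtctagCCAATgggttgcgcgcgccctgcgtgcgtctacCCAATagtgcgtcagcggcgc
Mcm5: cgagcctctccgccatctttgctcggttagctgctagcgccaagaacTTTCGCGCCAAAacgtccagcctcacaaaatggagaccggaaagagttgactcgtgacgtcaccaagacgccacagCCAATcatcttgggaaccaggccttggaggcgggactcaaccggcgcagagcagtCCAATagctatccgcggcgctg

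By GENCODE on GRCm38, the genes lay at 10 places: *Mki67* (ENSMUSG00000031004) at chr7:135689784-135716361, *Top2a* (ENSMUSG00000020914) at chr11:98992943-99024189, *Ccnb1* (ENSMUSG00000041431) at chr13:100778650-100786570, *Ccnb2* (ENSMUSG00000032218) at chr9:70407692-70421547, *Ccna2* (ENSMUSG00000027715) at chr3:36564865-36572150, *Cdk1* (ENSMUSG00000019942) at chr10:69335146-69352938, *Birc5* (ENSMUSG00000017716) at chr11:117849251-117855743, *Rrm2* (ENSMUSG00000020649) at chr12:24708241-24714146, *Mcm5* (ENSMUSG00000005410) at chr8:75109569-75128439 and *Pclaf* (ENSMUSG00000040204) at chr9:65890237-65903266. *Birc5*, *Rrm2*, *Mcm5* and *Pclaf* are on the plus strand and the others on the minus strand. Per length of exon, the genes lay close together. In injected BAT the mean level over the 12 libraries was 0.58 RPKM (reads scaled to exon length and library size) for *Mki67*, the marker of cells outside rest, then 0.368 for *Mcm5*, 0.310 for *Rrm2*, 0.265 for *Top2a* and 0.219 for *Ccna2*; *Ccnb2*, *Birc5*, *Ccnb1*, *Cdk1* and *Pclaf* stood at 0.194, 0.126, 0.105, 0.0814 and 0.0794 RPKM. In untreated BAT *Mcm5* (0.487 RPKM) and *Mki67* (0.47 RPKM) led and *Ccnb1* (0.109 RPKM) was last. The spread between libraries was far wider than these steps. From the lowest to the highest untreated library *Mki67* varied 65.4-fold, *Pclaf* 45.5-fold and *Mcm5*, the least variable, 5.88-fold in CPM; in injected BAT *Top2a* varied 32.3-fold, *Mki67* 16.3-fold and *Mcm5* 2.93-fold. *Ccna2* shares 510 exonic bases with *Exosc9* on the opposite strand, and whether the counting used strand is not given, so its counts are uncertain there. *Top2a* shares 122 exonic bases with the small nucleolar RNA gene *Gm23451* on the same strand, and *Ccnb1* and *Ccnb2* each have a processed pseudogene; how reads common to such pairs were assigned is not given either.

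In untreated BAT, *Mki67* stood at 3.31, 1.09, 5.52, 11.1 and 0.2 CPM in WT replicates 1 to 5 and at 8.90, 13.1, 0.629, 2.55 and 0.889 CPM in KO replicates 1 to 5. *Top2a*, the topoisomerase that untangles replicated chromosomes, stood at 1.06, 0.351, 3.77, 6.23 and 0.276 CPM in WT and 5.86, 4.34, 0.274, 1.10 and 0.237 CPM in KO. *Ccna2*, cyclin A2, stood at 0.276, 0.357, 2.77, 3.94 and 0.448 CPM in WT and 2.90, 3.68, 0.206, 0.793 and 0.498 CPM in KO. The same 4 libraries, WT replicates 3 and 4 and KO replicates 1 and 2, were highest each time. They were the highest for all 10 genes. The 4 libraries are those above the widest gap in the mean of these same genes. How many of all genes share this split was not counted, so it is not shown to be particular to the 10. These 4 libraries are the ones whose labels carry the consecutive numbers 191 to 194 (KO 191 and 192, WT 193 and 194), whereas the other 6 carry 121, 125 and 204 (WT) and 205, 295 and 297 (KO). The split of the libraries and the run of label numbers cannot be told apart. Their lowest value was 1.20 CPM for *Cdk1*, the kinase partner of the A and B cyclins, against at most 0.474 CPM in the other 6 libraries, and 0.783 against 0.252 CPM for *Pclaf*, the PCNA-associated factor. The margin was narrowest for *Mcm5*, a subunit of the replicative helicase, at 2.03 against 1.52 CPM, and for *Ccnb1*, at 0.537 against 0.418 CPM. No reads were counted for *Ccnb1* in KO replicate 5 or for *Cdk1* in KO replicate 4, where a count of 0 allows up to 3 counts (counting error only).

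**Figure D1:**
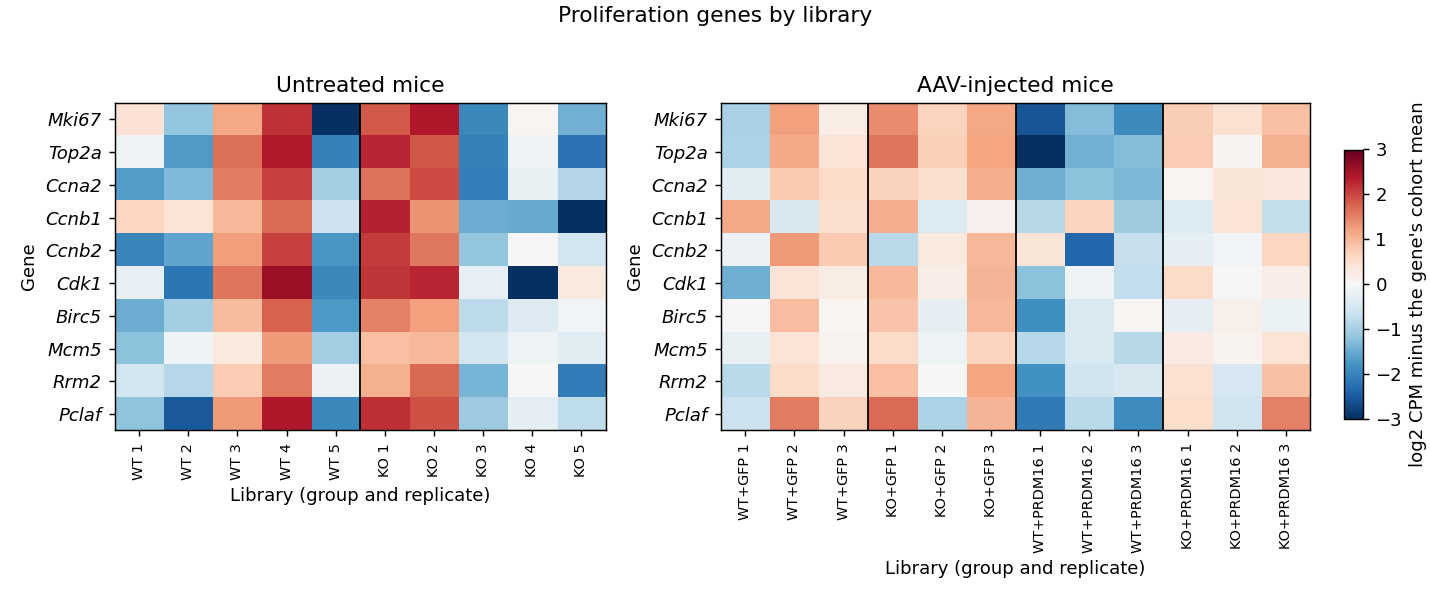
Level of each proliferation gene (rows) in each library (columns, by group), as log2 CPM minus the gene's mean over its cohort, with colours clipped at 3 either way. In untreated BAT all 10 rows are high in WT replicates 3 and 4 and KO replicates 1 and 2; in injected BAT the 3 WT + AAV-PRDM16 libraries are the lowest group.

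Genotype did not separate untreated BAT. *Mki67* averaged 4.25 ± 4.36 CPM in WT and 5.21 ± 5.53 CPM in KO (SD, n = 5 each), and the log2 fold changes of the 10 genes ran from −0.07 to 0.39 with a median of 0.19, beside 0.04 over all 17869 genes tested. None of the 10 passed a false discovery rate (FDR) of 0.05 in edgeR, DESeq2 or limma-voom, and none reached an unadjusted p of 0.05 in any of the 3; over all genes 0% passed the FDR in each tool and 15.9% the unadjusted p in edgeR. The WT and KO ranges overlapped for all 10, where 0.392% of all genes were higher and 0.979% lower without overlap. The 95% intervals were wide, from −1.73 to 2.36 for *Mki67* and from −0.91 to 1.33 for *Mcm5* on the log2 scale, so that changes of that size were not detectable here. The median depended on single libraries: it was 0.90 without WT replicate 4, −0.29 without KO replicate 2 and −0.20 without KO replicate 1, whose *Cpeb2* lay in the WT range, with 0 genes called each time. It was −0.21 in limma-voom. Fits that took the label numbers into account were added after these levels had been seen. With the run 191 to 194 as a block the median was 0.29, and with each of the 4 runs of neighbouring numbers as a block it was 0.24. Between the 2 WT and 2 KO libraries of that run alone it was 0.11, and between the 3 and 3 others 0.53. None of the 10 genes passed the FDR or an unadjusted p of 0.05 in any of these 4 fits, by edgeR. The share of all genes that passed in these fits, or in those without single libraries, was not counted. The deleted gene itself differed between these sets, at −0.25 for *Cpeb2* within the run (edgeR adjusted p = 0.999) and −1.68 outside it (edgeR adjusted p = 0.0425); the difference between the sets was not tested.

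Markers of other cells were read in the same untreated libraries. The 12 general leukocyte markers summed to 49.7, 120.4, 120.9 and 111.5 CPM in the 4 libraries with high proliferation genes (WT replicates 3 and 4, KO replicates 1 and 2) and to 21.6 to 48.3 CPM in the other 6. The 12 macrophage markers summed to 130.9, 413.1, 540.7 and 369.8 CPM in the 4 and to 60.9 to 134.8 CPM in the other 6, so that WT replicate 3 lay inside the range of the low libraries there. Skeletal muscle markers summed to 3587, 6757 and 7516 CPM in WT replicate 3 and KO replicates 1 and 2 but to 16.8 CPM in WT replicate 4, where the proliferation genes were just as high, and to 1135 CPM in KO replicate 5, where they were low. Stromal progenitor markers summed to 224, 282.4, 185.2 and 344.9 CPM in the 4 and to 128.2 to 174.5 CPM in the other 6, again without overlap. The T cell markers summed to 4.68 to 10.2 CPM in the 4 and 1.68 to 6.14 CPM in the other 6. The Y-linked transcripts did not divide the libraries in this way, since WT replicate 3 and KO replicate 1 lacked them and WT replicate 4 and KO replicate 2 did not. The part of these cells in the levels of the proliferation genes was not tested, and in bulk tissue more cells of a type and more RNA per cell cannot be told apart.

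Because the untreated libraries fell into a high and a low cluster, a correlation of the proliferation genes with marker scores over all 10 would mostly restate that split, and nothing is read from one. Within the 6 low libraries, 0 of 70 correlations of the proliferation genes with 7 cell type scores passed after Benjamini-Hochberg adjustment (permutation tests), and the correlation with the leukocyte score ran from −0.901 to 0.798 with a median of 0.16. Over 6 libraries a single correlation could not have passed, whatever its size, and these libraries were chosen for low levels of the same genes. The 0 therefore does not show that a relation was absent.

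In injected BAT, WT mice given PRDM16 had the lowest mean of all 10 proliferation genes. *Mki67* stood at 2.17, 10.2 and 5.02 CPM in the WT + AAV-GFP libraries and at 0.708, 1.74 and 1.13 CPM in WT + AAV-PRDM16. It stood at 11.5, 6.89 and 9.67 CPM in KO + AAV-GFP and at 7.19, 5.89 and 7.91 CPM in KO + AAV-PRDM16. All WT + AAV-PRDM16 libraries lay below all 9 others, whereas the other 3 groups overlapped each other.

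*Top2a* had the same shape, with 0.880, 3.81 and 2.24 CPM in WT + AAV-GFP libraries, 0.162, 0.615 and 0.687 CPM in WT + AAV-PRDM16 libraries, 5.25, 2.81 and 3.93 CPM in KO + AAV-GFP and 2.89, 1.79 and 3.58 CPM in KO + AAV-PRDM16. *Ccna2* stood at 0.611, 1.33 and 1.15 CPM, then 0.267, 0.319 and 0.290 CPM, then 1.25, 1.08 and 1.65 CPM, and 0.805, 0.995 and 0.954 CPM, in the same order of groups. The WT + AAV-PRDM16 libraries were again below all others for both genes.

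The partners of cyclin A2 in mitotic entry were lower and noisier. *Cdk1* ranged from 0.117 to 0.471 CPM in WT + AAV-GFP, 0.139 to 0.330 in WT + AAV-PRDM16, 0.407 to 0.733 in KO + AAV-GFP and 0.353 to 0.537 in KO + AAV-PRDM16. The B cyclins also had their lowest mean in WT + AAV-PRDM16, and their values in the 2 AAV-GFP groups overlapped. *Ccnb1* stood at 0.880, 0.273 and 0.553 CPM in the WT + AAV-GFP libraries and 0.841, 0.289 and 0.426 CPM in KO + AAV-GFP, and *Ccnb2* at 0.216, 0.627 and 0.438 CPM and 0.133, 0.307 and 0.509 CPM. For these 2 genes the highest mean was in WT + AAV-GFP, and for the other 8 in KO + AAV-GFP. *Birc5*, survivin, a subunit of the chromosomal passenger complex, ranged from 0.0928 to 0.774 CPM with overlap between all groups.

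Among the genes of DNA synthesis, *Mcm5* stood at 1.20, 1.85 and 1.498 CPM in WT + AAV-GFP libraries, 0.754, 0.9999 and 0.774 CPM in WT + AAV-PRDM16 libraries, 2.08, 1.24 and 2.21 CPM in KO + AAV-GFP and 1.65, 1.51 and 1.86 CPM in KO + AAV-PRDM16. *Pclaf* stood at 0.162, 0.818 and 0.438 CPM, 0.0464, 0.143 and 0.0581 CPM, 0.9001, 0.127 and 0.551 CPM, and 0.387, 0.167 and 0.789 CPM in these groups. For *Mcm5* the WT + AAV-PRDM16 libraries lay below the other 9, and for *Pclaf* they lay below those of WT + AAV-GFP and KO + AAV-PRDM16. *Rrm2*, a subunit of ribonucleotide reductase, ranged from 0.197 to 0.523 CPM in WT + AAV-PRDM16 libraries and from 0.413 to 1.69 CPM elsewhere. Ordered by mean, only the step up from WT + AAV-PRDM16 to the next group was free of overlap, for *Mki67*, *Top2a*, *Ccna2*, *Mcm5* and *Pclaf*; no step among the 3 higher groups was. The order was taken from each gene's own means. The share of all genes with such a step, or with WT + AAV-PRDM16 libraries below the other 9, was not counted.

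**Figure D2:**
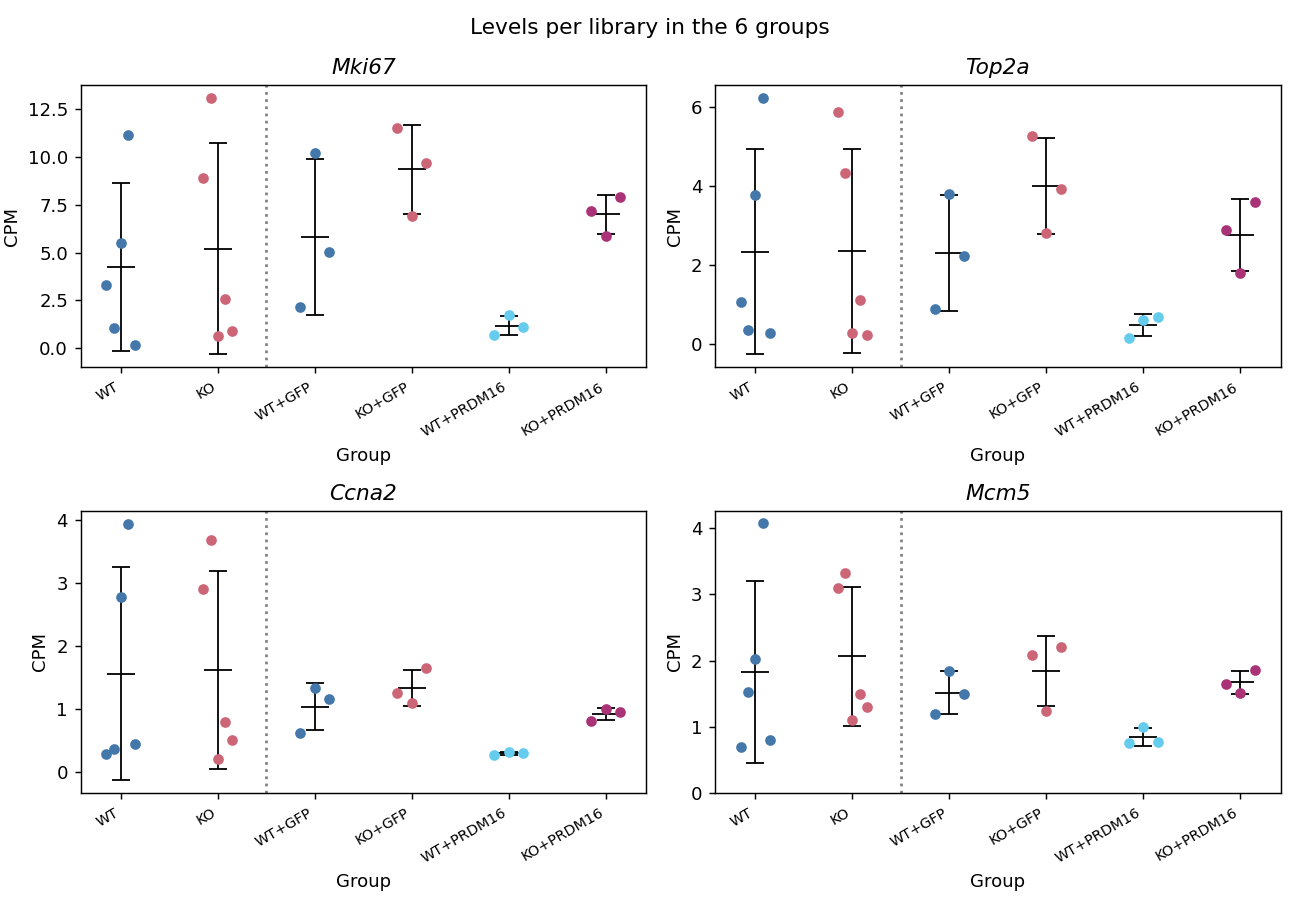
CPM (vertical axes) of Mki67, Top2a, Ccna2 and Mcm5 in every library (points) by group (horizontal axes), with the group mean (long line) and SD (whiskers). For all 4 genes the 3 WT + AAV-PRDM16 points lie below all 9 other injected libraries.

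Between KO and WT given AAV-GFP, none of the 10 genes passed the FDR in edgeR, DESeq2 or limma-voom and none reached an unadjusted p of 0.05 in edgeR, where 0.0529% and 9.18% of the 18899 genes tested did; DESeq2 and limma-voom called 1.29% and 0.0635% of all genes. Their log2 fold changes had a median of 0.33 beside 0.01 over all genes, with 8 of 10 positive where 51.5% of genes were; *Mki67* was at 0.70 with a 95% interval from −0.27 to 1.67. Between KO and WT given AAV-PRDM16, all 10 were positive, where 51.4% of genes were, with a median of 1.12 beside 0.01 over all genes. No gene of the 10 passed the FDR in edgeR, which 0.0476% of genes did. At an unadjusted p of 0.05, 6 were higher in KO, where 6.92% of genes were, and 6 were higher without overlap (these included *Cdk1* and not *Rrm2*), where 11.4% of genes were.

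The KO to WT differences under AAV-PRDM16 were largest for *Mki67* (log2 fold change 2.55, SE 0.48, 95% interval 1.5 to 3.60; 5.86-fold), with an edgeR quasi-likelihood p of 0.000187 and an adjusted p of 0.0887. *Top2a* differed by 2.49 (SE 0.57, adjusted p = 0.12), *Ccna2* by 1.65 (SE 0.33, adjusted p = 0.0909) and *Mcm5* by 0.98 (SE 0.28, adjusted p = 0.165) in the same edgeR fit. *Pclaf* differed by 2.41 (SE 0.87, adjusted p = 0.256) and *Rrm2* by 1.25 (SE 0.52, adjusted p = 0.312), also by edgeR. The call depended on the tool: DESeq2 called *Mki67*, *Top2a*, *Ccna2* and *Mcm5* (adjusted p = 6.01e-06, 0.000706, 0.00165 and 0.0349), and limma-voom called *Mki67* and *Ccna2* (adjusted p = 0.0265 and 0.047), where these tools called 3.28% and 2.88% of all genes. In edgeR *Mki67* alone passed when a WT + AAV-GFP library, replicate 1 or 2, was left out of the joint fit, with its lowest adjusted p at 0.037. How many of all genes passed in those fits was not counted.

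The effect of the virus was compared within each genotype, and each of these comparisons shares a group with those above. In WT, all 10 genes were lower with AAV-PRDM16 than with AAV-GFP, where 47.9% of all genes were above 0, with a median log2 fold change of −1.16 beside −0.01 over all genes. By edgeR none passed the FDR, which 0% of genes did, 5 were lower at an unadjusted p of 0.05, where 5.19% of genes were, and the same 5 were lower without overlap, where 8.36% of genes were. They were *Ccna2* (−1.80, SE 0.33, adjusted p = 0.342), *Mki67* (−2.27, SE 0.48, adjusted p = 0.439), *Top2a* (−2.22, SE 0.57, adjusted p = 0.459), *Mcm5* (−0.83, SE 0.28, adjusted p = 0.51) and *Pclaf* (−2.49, SE 0.86, adjusted p = 0.524). DESeq2 called 3 of them, *Mki67*, *Top2a* and *Ccna2*, where it called 0.804% of all genes, and limma-voom none, where it called 0.00529%. In limma-voom 6 were lower at an unadjusted p of 0.05, as were 6% of all genes.

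In KO the same contrast was small. The median was −0.46 beside −0.01 over all genes, all 10 were again on the lower side (48.5% of genes were above 0), and by edgeR none passed the FDR (0% of genes did) or reached an unadjusted p of 0.05 (6.41% of genes did), and DESeq2 and limma-voom called none (1.41% and 0% of all genes). *Ccna2* alone was lower without overlap, where 6.16% of genes were. The 95% intervals still allowed sizeable decreases, from −1.39 to 0.56 for *Mki67*, −1.69 to 0.62 for *Top2a* and −1.22 to 0.16 for *Ccna2*. KO + AAV-PRDM16 was also set directly against WT + AAV-GFP, which asks whether KO tissue given PRDM16 stood at the level of the control. The median was 0.04 and 5 of 10 were positive, where 47.4% of genes were; none passed the FDR (0.00529% of genes did) or reached an unadjusted p of 0.05 (7.93% of genes did) in edgeR, DESeq2 and limma-voom called none either (0.831% and 0.00529% of all genes), and *Mki67* differed by 0.28 with a 95% interval from −0.69 to 1.25.

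**Figure D3:**
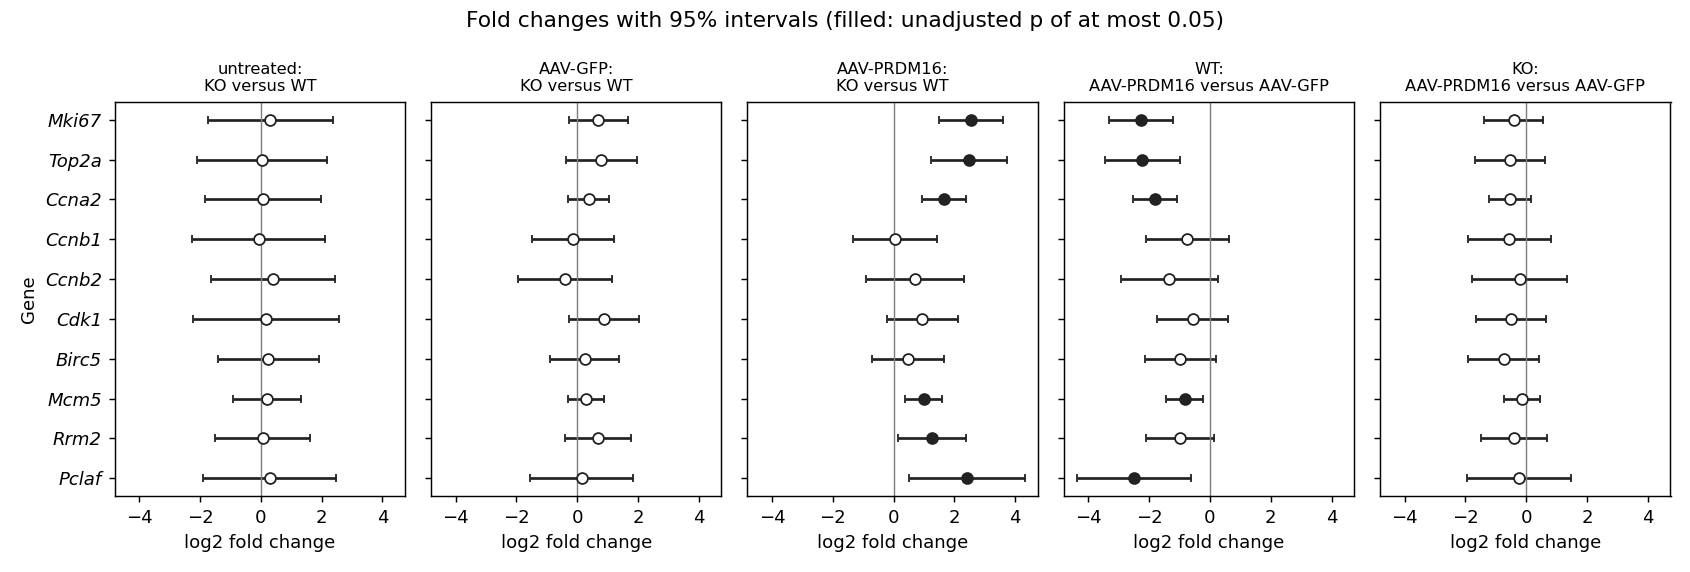
Log2 fold change of each proliferation gene with its 95% interval from edgeR, for KO against WT in untreated BAT and under each virus and for AAV-PRDM16 against AAV-GFP in each genotype; filled points have an unadjusted p of 0.05 or below. Mki67, Top2a and Ccna2 lie well above 0 in KO against WT under AAV-PRDM16 and well below 0 in WT after PRDM16, while the KO intervals after PRDM16 include 0.

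Whether the virus acted differently in the 2 genotypes was tested as an interaction. By edgeR 0 of the 10 genes passed the FDR (0% of genes did) and 3 were higher at an unadjusted p of 0.05, where 1.59% of genes were: *Mki67* (1.85, SE 0.65, adjusted p = 1), *Ccna2* (1.27, SE 0.45, adjusted p = 1) and *Top2a* (1.69, SE 0.77, adjusted p = 1). DESeq2 and limma-voom called none (0.00529% and 0% of all genes), with 3 and 5 higher at an unadjusted p of 0.05, where 1.85% and 3% of genes were. A difference between genotypes in the response to PRDM16 was thus not established for any of the 10.

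Averaged over both viruses, KO against WT reached the FDR for 2 of the 10 genes, both higher, where 2.18% of all genes passed in either direction. *Mki67* rose by 1.62 on the log2 scale (SE 0.33, edgeR adjusted p = 0.0302) and *Ccna2* by 1.01 (SE 0.23, edgeR adjusted p = 0.044). *Top2a* was at 1.64 (SE 0.39) with an edgeR adjusted p of 0.0509. *Rrm2*, *Cdk1*, *Mcm5* and *Pclaf* were at 0.97, 0.92, 0.64 and 1.28 with edgeR adjusted p from 0.102 to 0.266; 7 genes were higher at an unadjusted p of 0.05, where 9.54% of genes were. DESeq2 called 4 and limma-voom 3 of the 10, where they called 8.38% and 6.71% of all genes. The call was not stable. Leaving out each of the 12 libraries in turn, *Mki67* lost it without WT + AAV-GFP replicate 3, WT + AAV-PRDM16 replicate 1 or 3, KO + AAV-GFP replicate 2 or KO + AAV-PRDM16 replicate 1 or 3 (edgeR adjusted p over the 12 fits from 0.0206 to 0.0819). *Ccna2* kept it only without KO + AAV-GFP replicate 1 (adjusted p over the 12 fits from 0.0485 to 0.109). With the macrophage score of each library as a covariate, *Mki67* was at 1.05 (adjusted p = 0.397) and *Ccna2* at 0.48 (adjusted p = 0.556), and 0 of the 10 were called. With the leukocyte score they were at 1.27 and 0.73 (edgeR adjusted p = 0.0601 and 0.112), again with 0 called. *Cpeb2* also lost its call in the macrophage fit, at −1.17 under AAV-GFP and −1.33 under AAV-PRDM16 (edgeR adjusted p = 0.137 and 0.106). The share of all genes called in these covariate fits was not counted. Averaged over both genotypes, PRDM16 against GFP called 0 by edgeR, where 0.037% of genes passed, and 6 were lower at an unadjusted p of 0.05, where 7.02% of genes were; *Ccna2* was at −1.17 (adjusted p = 0.0543), *Mki67* at −1.34 (adjusted p = 0.089) and *Top2a* at −1.38 (adjusted p = 0.148), and DESeq2 called 3 where it called 3.19% of all genes, and limma-voom 0 where it called 0.0423%. Without WT + AAV-GFP replicate 1 edgeR called 3 as well, and without KO + AAV-GFP replicate 1 it called 1. For fits without single libraries the share of all genes called was not counted.

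Other cell cycle genes were read as lists of their own. Of 33 further genes of mitosis that were tested, 18 were higher in KO than in WT under AAV-PRDM16 at an unadjusted p of 0.05, as were 6.92% of all genes, with a median of 1.22. In WT after PRDM16 18 were lower, as were 5.19% of all genes, with a median of −1.07, and in KO after PRDM16 2 were lower, as were 5.1% of all genes, with a median of −0.32. None of them passed the FDR in these contrasts. Over both viruses 5 passed, where 2.18% of all genes did, all higher in KO by edgeR: *Cenpe* (1.23, adjusted p = 0.0225) and *Cenpf* (1.64, adjusted p = 0.0476), which act at kinetochores, *Hmmr* (1.66, adjusted p = 0.044), a spindle assembly factor, *Prc1* (1.47, adjusted p = 0.0297), which bundles the central spindle, and *Kif23* (1.23, adjusted p = 0.0484), a kinesin of cytokinesis. The mitosis genes with the most reads behaved otherwise, with *Cenpa* at −0.25, *Mad2l1* at 0.34, *Tacc3* at 0.04 and *Anln* at 0.16 for KO against WT under AAV-PRDM16. In untreated BAT the median of the mitosis list was 0.31 and 0 of it were called.

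The lists of replication, G1 and inhibitor genes had medians nearer 0. The 30 replication genes had medians of 0.21 and 0.18 for KO against WT under GFP and PRDM16 and of −0.19 and −0.16 for PRDM16 against GFP in WT and KO, and the abundant ones, *Rrm1*, *Slbp*, *Pcna* and *Mcm7*, were at 0.09, 0.00, 0.20 and 0.13 for KO against WT under AAV-PRDM16. Single replication genes lay further out, from −0.47 to 1.85 in that contrast; 5 of 30 were higher at an unadjusted p of 0.05 (6.92% of all genes) and 8 were higher without overlap (11.4% of all genes), and over both viruses 9 were higher at that p (9.54% of all genes). The 10 cyclins and kinases of G1 (*Ccnd3*, *Cdk6*, *Cdk4* and *Ccnh* the most abundant) had medians from −0.10 to 0.07 in the 4 contrasts. The 15 inhibitors and brakes of the cycle tested, of which *Ccng1*, *Rb1*, *Rbl2* and *Btg1* had the most reads, had medians from −0.04 to 0.03. Under AAV-PRDM16, 1 of the 10 and 3 of the 15 were higher in KO at an unadjusted p of 0.05, where 6.92% of all genes were. Without overlap, 1 of the 10 and 4 of the 15 were higher, where 11.4% of all genes were, and 0 and 2 were lower. None of these 3 lists had a member past the FDR in the 4 contrasts, in edgeR.

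**Figure D4:**
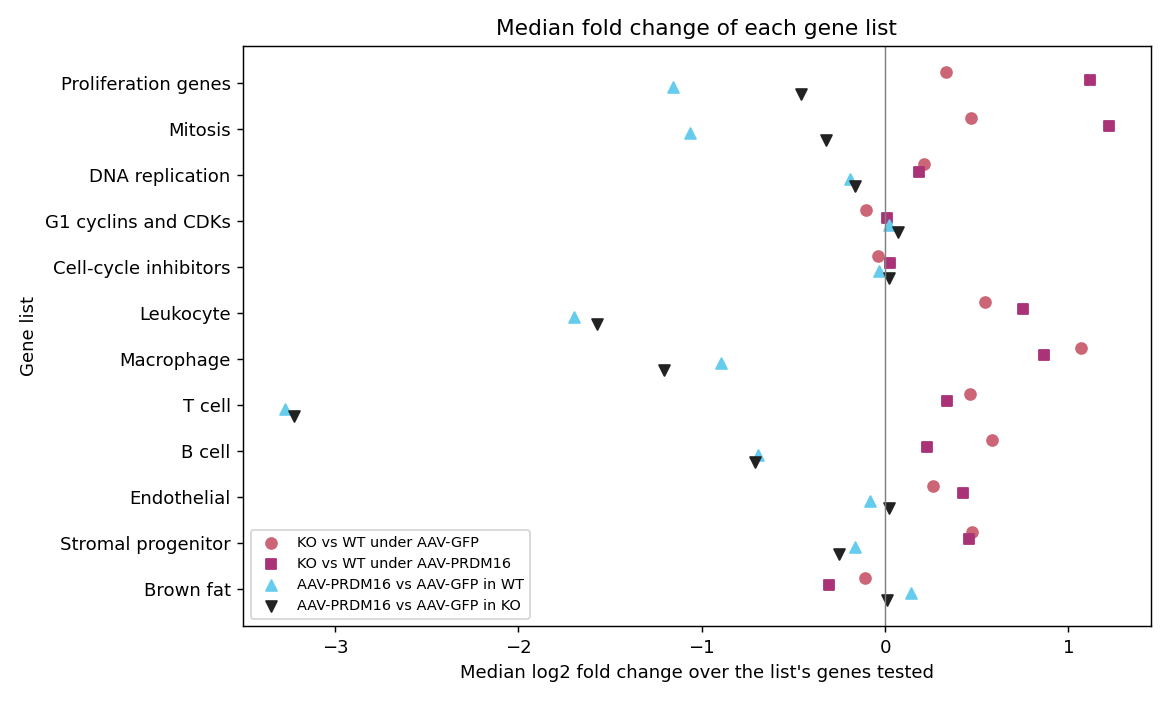
Median log2 fold change of each list of cell cycle genes and cell type markers in the 4 contrasts of injected BAT. Proliferation and mitosis genes lie at 1.12 and 1.22 for KO against WT under AAV-PRDM16 while the G1 and inhibitor lists lie near 0, and T cell markers lie near −3 for PRDM16 against GFP in both genotypes.

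The lists of immune markers were set beside the proliferation genes. The 14 T cell markers (*Cd247*, *Cd8a*, *Cd4* and *Lck* the most abundant) had medians of −3.28 in WT and −3.23 in KO for PRDM16 against GFP, with 13 and 14 of them lower at an unadjusted p of 0.05 (5.19% and 5.1% of all genes were) and none past the FDR in edgeR; the proliferation genes had −1.16 and −0.46 in the same contrasts. The leukocyte markers had −1.69 and −1.57, and the macrophage markers −0.89 and −1.21, with *Lyz2* at −1.31 in WT and −1.62 in KO. The medians of the T cell and leukocyte lists were thus alike in the 2 genotypes, and that of the proliferation genes was nearer 0 in KO; no gene of these lists passed the FDR in the interaction test (edgeR). Macrophage markers were on the higher side in KO under both viruses, with medians of 1.07 and 0.87 and 11 and 10 of 12 higher at an unadjusted p of 0.05, where 4.98% and 6.92% of all genes were. Over both viruses 5 of 12 passed the FDR, where 2.18% of all genes did, among them *Csf1r* (1.02, edgeR adjusted p = 0.0349) and *C1qb* (1.14, edgeR adjusted p = 0.0497). T cell markers had medians of 0.46 and 0.34 for KO against WT.

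By library, the summed level of the 10 genes was 7.02, 21.2 and 13.03 CPM in the WT + AAV-GFP libraries and 2.90, 5.56 and 4.38 CPM in WT + AAV-PRDM16. It was 24.8, 14.2 and 22.1 CPM in KO + AAV-GFP and 15.3, 12.4 and 17.8 CPM in KO + AAV-PRDM16. T cell markers summed to 4.20, 32.0 and 18.0, to 2.64, 2.57 and 2.08, to 14.3, 12.3 and 47.1 and to 2.71, 2.93 and 4.62 CPM in the same order of libraries. In both groups given PRDM16 T cell markers were low, though their sums were slightly higher in every KO than in every WT library. Their mean log2 CPM overlapped, at −3.27 to −2.82 in WT and −3.26 to −2.13 in KO. The proliferation genes were also higher in every KO than in every WT library of these groups, by a wider margin. Macrophage markers summed to 72.7, 146.6 and 149.1 CPM, 53, 64.9 and 61.7 CPM, 182.4, 176.5 and 434.3 CPM, and 119.9, 99.97 and 115.1 CPM. Here KO + AAV-PRDM16 lay between the WT groups' extremes and above every WT + AAV-PRDM16 library, as the proliferation genes did. The part of either cell type in the levels of the proliferation genes was not tested.

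Over the 12 injected libraries, each proliferation gene was correlated with 7 marker scores (the mean log2 CPM of each list), and p was adjusted over the 140 relations computed in both cohorts. With the leukocyte score 8 of 10 genes were past the threshold (median Pearson r 0.762; median Spearman rho 0.821). The share of all genes past the same threshold was not computed. This count and those below therefore do not show a relation particular to the 10 genes. *Ccna2* had r = 0.873 (permutation test, adjusted p = 0.00296) and rho = 0.965 (adjusted p = 0.0014), and *Mki67* r = 0.784 (permutation test, adjusted p = 0.0115) and rho = 0.825 (adjusted p = 0.00974), whereas *Ccnb1* had r = 0.108 (permutation test, adjusted p = 0.777). The relation rested in part on 2 libraries and on the groups: without KO + AAV-GFP replicate 3 and WT + AAV-GFP replicate 2, the farthest from the median, 4 genes were past the threshold (median r 0.718), and with each library set against its group mean 1 was, *Rrm2* (r = 0.725, permutation test, adjusted p = 0.0256; median r 0.637). The same count was 7 with macrophage markers (median r 0.808), 7 with B cell markers (0.698), 6 with stromal progenitor markers (0.776), 2 with T cell markers (0.626), 0 with endothelial markers (0.254) and 0 with muscle markers (0.242), by permutation tests. With each library set against its group mean, 0 genes were past the threshold for any of these 6 lists, with median r of 0.491 for macrophage, 0.612 for B cell, 0.508 for stromal progenitor, 0.611 for T cell, −0.26 for endothelial and 0.401 for muscle markers.

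**Figure D5:**
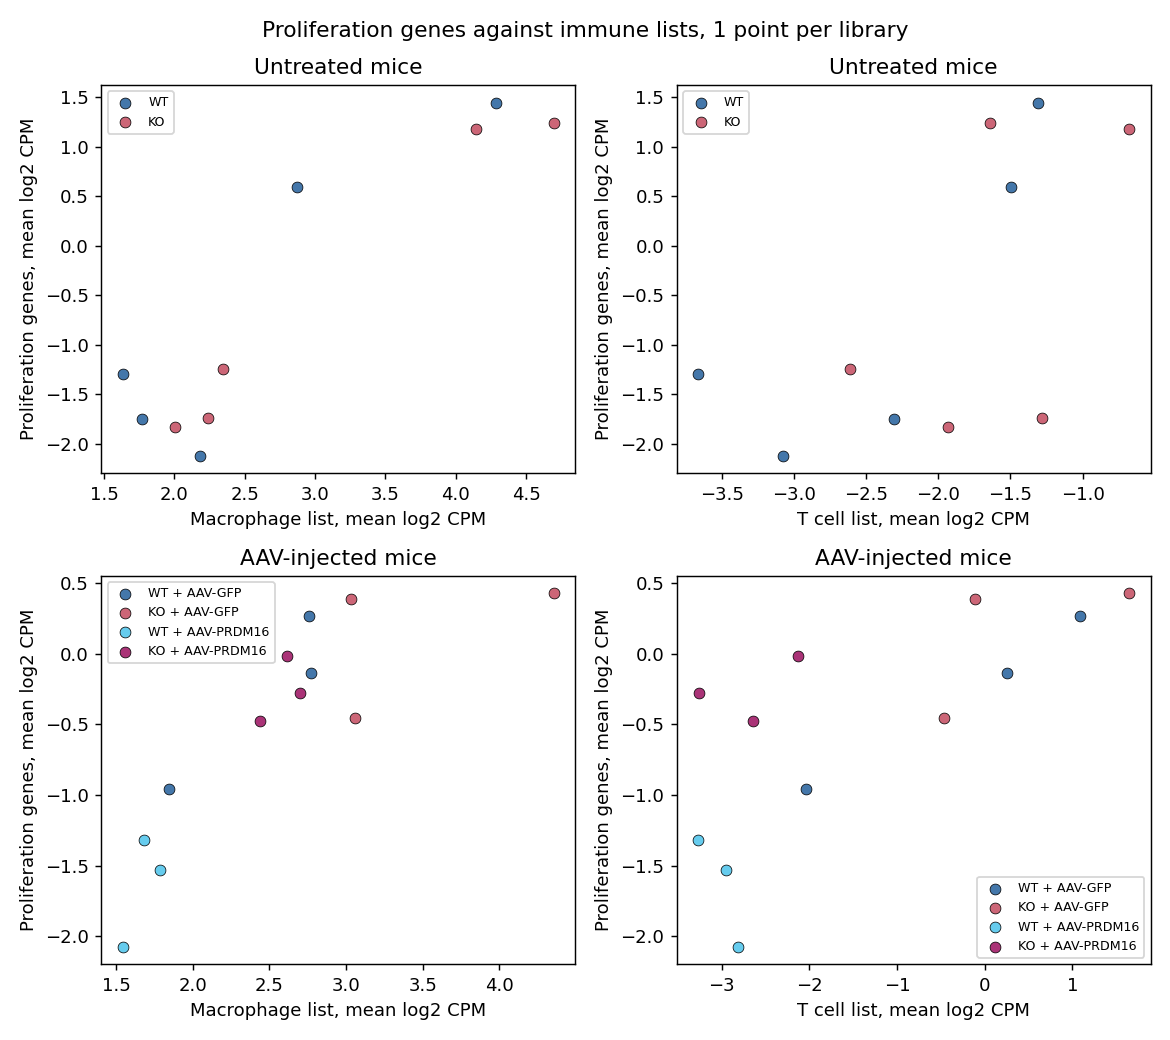
Mean log2 CPM of the 10 proliferation genes (vertical axes) against the macrophage and T cell scores (horizontal axes, mean log2 CPM of each marker list), with 1 point per library coloured by group and untreated above injected mice. The 4 high untreated libraries stand apart from the other 6, and KO + AAV-PRDM16 points lie to the left on the T cell axis without falling to the WT + AAV-PRDM16 level of the proliferation genes.

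Among themselves, the 10 genes were compared in pairs over the injected libraries. Over these 12 the 45 pairs had a median r of 0.758, from −0.343 (*Ccnb1* with *Ccnb2*) to 0.976 (*Mki67* with *Top2a*), and 29 pairs exceeded 0.5. Pairs share the libraries and low counts, so these are descriptions. Of 17188 other genes kept in both cohorts, the 8 whose log2 CPM tracked the mean of the 10 most closely, by the lower of the 2 within-cohort correlations, were *Lair1* (0.929), *Kif23* (0.929), *Tpx2* (0.929), *E2f8* (0.927), *Itgax* (0.922), *Kif11* (0.916), *Tlr13* (0.914) and *Cybb* (0.913). In untreated BAT such an r is set largely by the 4 high and 6 low libraries, so a gene that shares this split ranks high whatever it does within either set. *Kif23*, *Tpx2* and *Kif11* are spindle genes and *E2f8* a cell cycle transcription factor, while *Lair1*, *Itgax*, *Tlr13* and *Cybb* are genes of myeloid and other leukocytes.

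Cells with high rates of division were also read by their defining markers. For germinal centre B cells, *Rgs13* was listed at 0 in all 22 libraries, while *Bcl6*, which adipose tissue also expresses, had by far the most reads of the list. *S1pr2*, a receptor that keeps B cells in the germinal centre, was detected in all 22 libraries, at 0.294 to 2.61 CPM untreated and 0.476 to 2.04 CPM injected. *Mef2b* was at 0 in 2 untreated libraries and *Gcsam* at 0 in 1 untreated and 3 injected ones, with highest values of 0.343 and 0.516 CPM over both cohorts. For thymocytes, *Rag1* was at 0 in 9 of 10 and 11 of 12 libraries and *Dntt* in 10 of 10 and 11 of 12, with *Cd1d1* the most abundant of the list. *Glycam1* and *Chst4*, of lymph node vessels, were at 0 in all 22 libraries, and *Pax7*, *Myf5* and *Myod1*, of muscle precursors, in all 12 injected ones. The 6 myogenic progenitor markers summed to at most 0.118 CPM in injected BAT. In untreated BAT they summed to 0 to 3.22 CPM in WT and 0 to 13.1 CPM in KO. For B cell, plasma cell and germinal centre lists the medians were −0.69, −1.60 and −0.96 for PRDM16 against GFP in WT and −0.71, −0.93 and −0.44 in KO, with none past the FDR in edgeR; 3 of 8 neutrophil markers and 1 of 7 markers of node stroma passed the filter on low counts. Erythroid genes had medians of 0.22 and 0.32 in these 2 contrasts, and the 12 muscle markers, of which 9 passed the filter on low counts, summed to 0.371 to 104.3 CPM over the injected libraries.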

How the data were processed

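Gene-level counts were deposited by the authors, 1 table for the 10 untreated libraries and 1 for the 12 injected. RNA was extracted with TRIzol and libraries made with a SureSelect XT HS2 mRNA kit; per the submitters' processing notes, bcl2fastq 2.20, Trimmomatic 0.36 and HISAT2 were used with GRCm38.p6. The counting tool, its strand setting and the annotation are not given in the sources used here. Ensembl identifiers were matched to GENCODE M21 symbols (55141 of 55487). The tables were analysed apart. Genes were kept by edgeR's filterByExpr (17869 and 18899, all 10 proliferation genes included), scaled by TMM and tested two-sided with edgeR's quasi-likelihood test (version 4.0.16, R 4.3.3), with Benjamini-Hochberg adjustment over all genes kept and an FDR of 0.05; the 4 injected groups shared a fit. Alternatives used DESeq2 1.42.0, limma-voom (limma 3.58.1), another scaling, no filter, a replicate block, marker scores as covariates, runs of label numbers as blocks and each library left out. CPM use TMM library sizes, log2 CPM a prior count of 2, and correlations 100000 permutations (smallest p 1e-05). Where values of a group are summarised, ± is the SD. Libraries of a group are taken as separate mice, as the labels list them. The closest of 32 within-group pairs of libraries still differed beyond counting noise (median chi-square 5.255). Statistics are printed for proliferation genes at an unadjusted p of 0.05 or below (for others as ranges), for up to 4 abundant genes of each list, for cell cycle genes past the FDR, and for the 8 genes most like the 10. The gene set and all lists were chosen with earlier results of these data known. Depth, given with the groups, sets the precision of single genes, and intervals cover the spread between libraries.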

Additional observations from a re-analysis of the deposited data

Results flagged for a closer look

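Of 60 values tested for a library that stands apart within a group of 5, 2 did by Dixon's gap ratio, where chance flags about 1 in 20 groups. The score of myogenic progenitor markers in WT replicate 3 (mean log2 CPM −3.116) lay above the other 4 WT libraries by 0.816 of the whole range. The score of erythroid genes in KO replicate 1 (mean log2 CPM 2.094) lay below the other 4 KO libraries by 0.72 of the range. Both libraries are among the 4 with high proliferation genes; no level of a proliferation gene was itself flagged.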

How the results depend on the processing

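The 10 genes kept 0 calls in untreated BAT and between KO and WT under AAV-GFP in every setting tried (DESeq2, limma-voom, another scaling, no filter, a replicate block, marker scores as covariates, each library left out, and for untreated BAT the runs of label numbers). For KO against WT under AAV-PRDM16, DESeq2 called 4, limma-voom 2 and a T cell score covariate 2, and leaving out a library gave 0 to 1. DESeq2 called 3 in WT after PRDM16 and 3 for the virus over both genotypes, where leaving out WT + AAV-GFP replicate 1 also gave 3 and leaving out KO + AAV-GFP replicate 1 gave 1 (range 0 to 3). For genotype over both viruses DESeq2 called 4, no filter on low counts 1, and a leukocyte or a macrophage covariate 0, and leaving out a library gave 0 to 2. Outside the main, DESeq2 and limma-voom fits, the share of all genes called was not counted. A change in these counts is therefore not shown to be particular to the 10 genes.

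Marker covariates moved the median log2 fold change. A macrophage covariate gave −0.13 for KO against WT under GFP, 0.64 under PRDM16, 0.38 over both viruses and 0.18 for PRDM16 in KO. A leukocyte covariate gave −0.61 and 0.39 for PRDM16 in WT and KO, −0.11 over both, and 0.57 for KO + AAV-PRDM16 against WT + AAV-GFP. A T cell covariate gave −0.43, 0.74, 0.063 and 1.11 in these, and turned the virus effect of *Mki67* (0.023), *Mcm5* (0.10) and *Pclaf* (0.43) positive. With 3 libraries a group, such scores move with the groups, and the cause was not tested. Leaving out each library gave medians of −0.29 to 0.90 untreated, 0.16 to 0.72 and 0.94 to 1.37 for KO against WT under GFP and PRDM16, −1.47 to −1.01 and −0.69 to −0.30 for PRDM16 in WT and KO, −0.17 to 0.45 for KO + AAV-PRDM16 against WT + AAV-GFP, 0.77 to 1.10 for genotype, −0.97 to −0.73 for virus and 0.63 to 1.15 for the interaction.

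The number of genes correlated with the leukocyte score was 8 in injected BAT (1 centred on groups, 4 without the 2 farthest libraries, 7 to 9 with each left out) and, in untreated BAT, where it mostly restates the 4 and 6 libraries, 9, falling to 5, to 0 within the 6 low libraries and ranging from 6 to 9. Over 6 libraries a single correlation could not pass, so nothing is read from that 0.

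The replicate numbers did not pair the libraries: of 18 pairs in injected BAT and 5 in untreated BAT, 2 and 1 had a correlation of deviations over 0.1. The fit with a replicate block called 2 genes for genotype over both viruses and 0 elsewhere, with medians of 0.46, 0.35, 1.15, −1.17, −0.47, 0.02, 0.99, −0.82 and 0.90; *Cpeb2* under AAV-GFP had an adjusted p of 0.0643 there and 0.0211 to 0.137 with each library left out, and under AAV-PRDM16 0.0113 to 0.0581. Counts per library went down to 3 for *Ccnb2* and 4 for *Pclaf* in WT + AAV-PRDM16, which limits what could be seen for the genes with fewest reads.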

Other observations

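Stromal progenitor markers were read gene by gene. In injected BAT their score correlated with 6 of the 10 proliferation genes, and with 0 once each library was set against its group mean. *Cd34*, an antigen of vascular and stromal precursor cells, averaged 18.8 CPM in KO and 9.46 CPM in WT over both viruses (log2 fold change 0.99, SE 0.16, edgeR adjusted p = 0.0145), without overlap between the 6 KO and the 6 WT libraries, and differed by −0.04 between viruses (edgeR adjusted p = 0.986). *Cd34* was the only 1 of the 10 markers past the FDR for genotype, where 2.18% of all genes passed. The share of all genes without overlap in that contrast is not given here. *Dcn*, a proteoglycan of fibroblasts, was at 0.40 for genotype (edgeR adjusted p = 0.147). The list had medians of 0.47 and 0.46 for KO against WT under GFP and PRDM16 and of −0.16 and −0.25 for PRDM16 against GFP in WT and KO. Endothelial markers had 0.26, 0.42, −0.08 and 0.02 in these contrasts, and brown adipocyte markers −0.11, −0.31, 0.14 and 0.01.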
